A study of Mus musculus with 5 samples.

Results

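Among the inhibitory neurons of the mouse central amygdala (CeA), a small group carried high levels of Foxp2, which encodes a forkhead transcription factor. These nuclei were selected by their Foxp2 level and are described here as Foxp2-gated nuclei. They numbered 393 of the 6020 nuclei with a Gad1 or Gad2 transcript (the enzymes that make GABA), of 7161 nuclei kept and 23839 barcodes in all. A kept nucleus had 500 to 8000 detected genes and under 0.8% of its unique molecular identifiers (UMIs, each standing for an RNA molecule) from mitochondrial genes. A Foxp2-gated nucleus had at least 1 UMI of Gad1 or Gad2, at least 8 Foxp2 UMIs per 10000 and under 15 Pde1c UMIs per 10000. Pde1c marks a neighbouring population. The study names Foxp2 as a marker of intercalated cells, and the label "intercalated" was checked below against markers that the selection did not use.

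Intercalated neurons are GABAergic cells packed into small clusters in the fibre tracts around the basolateral amygdala. They receive cortical and basolateral input and inhibit basolateral and central amygdala neurons, and they are known for their part in fear learning and extinction. Dopamine D1 receptors and mu-opioid receptors are classical features of these cells.

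The nuclei came from 5 libraries, each made from the CeA of 1 male and 1 female mouse pooled together. Fed replicates 1 and 2 and fasted replicates 1 and 2 were from wild-type mice of 8 weeks. Fed replicate 3 was from Htr2a-Cre mice of 12 weeks that had received a Cre-dependent virus carrying mCherry, so that genotype and age differ from the other libraries only within the fed group. Fasting lasted 20 hours for fasted replicate 1 and 21 hours for fasted replicate 2. Fed and fasted replicates of the same number were prepared in the same batch, and fed replicate 3 in a batch of its own.

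Foxp2-gated nuclei were found in every library, 53, 86 and 89 in the fed libraries (replicates 1, 2 and 3) and 50 and 115 in the fasted libraries (replicates 1 and 2). Their median depth was 6078, 14451 and 11263 UMIs in the fed libraries and 5186.5 and 14037 in the fasted libraries. The other Gad1/Gad2 nuclei were deeper in each library, with medians of 9108, 18117, 14342.5, 7028 and 17708 UMIs in the same order. The summed counts of the Foxp2-gated nuclei were 357505, 1300131 and 1218432 UMIs in the fed and 289721 and 1708840 in the fasted libraries. Fed replicate 1 and fasted replicate 1 therefore gave the least precise values throughout. The median mitochondrial share of the Foxp2-gated nuclei was 0.308%, 0.267% and 0.117% in the fed and 0.311% and 0.398% in the fasted libraries. In the other Gad1/Gad2 nuclei it was 0.114%, 0.0546% and 0.0459% in the fed and 0.295% and 0.202% in the fasted libraries. It was thus higher in the Foxp2-gated nuclei of each library, and the part of this difference in the results below was not tested. Of the Foxp2-gated nuclei, 2 were called doublets, and no barcode was shared between Foxp2-gated nuclei of different libraries.

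Foxp2-gated nuclei made up 5.66% of the Gad1/Gad2 nuclei in fed replicate 1 (exact binomial 95% interval 4.27 to 7.34), 9.98% in fed replicate 2 (8.06 to 12.2) and 6.75% in fed replicate 3 (5.45 to 8.24). They made up 3.67% in fasted replicate 1 (2.73 to 4.81) and 7.47% in fasted replicate 2 (6.20 to 8.90). The intervals cover counting error only. The mean was 7.46 ± 2.24% (SD, n = 3) in fed and 5.57 ± 2.69% (SD, n = 2) in fasted libraries. Fed and fasted shares overlapped, and the two-sided exact permutation test over libraries gave p = 0.6. With 3 libraries against 2 the smallest p this test can give is 0.2. Within batches, the fasted share was lower than the fed share by similar amounts, with differences of -1.99 percentage points for replicates 1 and -2.51 for replicates 2.

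Foxp2 itself (ENSMUSG00000029563; GRCm39, chr6:14901287-15441976) was the selecting gene, and its level is given only as a description. The Foxp2-gated nuclei had a median of 18 Foxp2 UMIs each, with a range of 1 to 109. Only 5 of the 393 were selected with fewer than 3 Foxp2 UMIs. There was 1 nucleus with Foxp2 above its bound that was left out for its Pde1c level, so the Pde1c bound hardly shaped the group. The Foxp2 bound cut through a range of values. The 57 nuclei just inside it, with 8 to 10 Foxp2 UMIs per 10000, held 235 CPM of Tshz1 (UMIs of the gene scaled to a common library total), and the 87 just outside, with 6 to 8, held 151 CPM. Nuclei with at least 20 Foxp2 UMIs per 10000 held 539 CPM of Tshz1.

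Clustering was then used to ask whether the Foxp2-gated nuclei fall together when Foxp2 and the other gate genes are withheld. All 6020 Gad1/Gad2 nuclei were clustered on variable genes from which these were removed. Of the Foxp2-gated nuclei, 290 (73.8%, exact 95% interval 69.1 to 78.1) lay in 1 of 25 clusters, cluster 6, and they made up 85.0% of its 341 nuclei. Cluster 6 was led by Chst9, Tshz1, Erbb4, Nfib and Sphkap, with Rai14 also among its 10 leading genes. Chst9 encodes a sulfotransferase, Tshz1 a zinc finger factor of intercalated cells, Erbb4 a neuregulin receptor and Rai14 an actin-associated protein. Pooled over libraries, its Foxp2-gated nuclei had 521 CPM of Tshz1 against 27.7 in the other Gad1/Gad2 nuclei, 123 against 13.03 CPM of Rai14 and 25.8 against 6.03 CPM of Drd1. It is called intercalated-like on these markers, foremost Tshz1. The study also uses Rai14, together with Drd2, for a type of the medial CeA, and Meis2 and Oprm1 were detected in 84.0% and 24.1% of the other nuclei, thinned as below. The share in cluster 6 was 79.2%, 83.7% and 71.9% in the fed libraries, and 52.0% and 74.8% in the fasted libraries.

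The remaining 103 nuclei differed from cluster 6, so the Foxp2 bound did not select a single type. Cluster 8, led by Frem1, Adarb2, Grik1, Pde5a and Reln, held 43. Adarb2 marks interneurons of caudal ganglionic origin and was also high in cluster 6, at 2201 CPM in the 290 against 2694 CPM in the 43. Grik1 encodes a kainate receptor subunit. The excitatory marker Slc17a7 was also among the 10 leading genes of cluster 8. Pooled over libraries, the 43 nuclei had 1262 CPM of Grik1 and 83.1 CPM of Tshz1, against 22.9 CPM of Grik1 and 521 CPM of Tshz1 in the 290. Cluster 5 held another 27, and these carried 1449 CPM of Rarb, a retinoic acid receptor, 165 CPM of Gpr149, an orphan receptor, 27.6 CPM of Tshz1 and 6.13 CPM of Rai14. Rarb was not limited to these 27 and was detected in most cluster 6 members, as given below. Drd1 did not set cluster 6 apart from these 27, which had 58.2 CPM of it against 25.8 CPM in the 290. The last 33 were scattered over 12 clusters, among them 3 nuclei in a small cluster led by microglial genes.

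**Figure D1:**
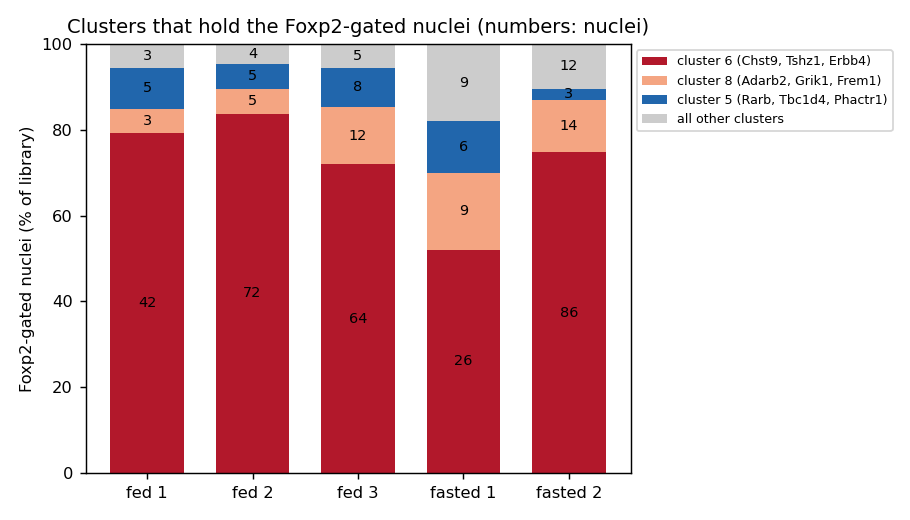
Share of the Foxp2-gated nuclei of each library (y axis, %) that lay in each cluster, with the number of nuclei printed in the bars. Cluster 6 held 52.0% of them in fasted replicate 1 and 71.9% to 83.7% in the other 4 libraries.

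Shares of nuclei with a transcript were compared after each nucleus was thinned to 4000 UMIs, which kept 369 Foxp2-gated nuclei (274 in cluster 6 and 95 outside), 5309 other Gad1/Gad2 nuclei and 98 glia. Tshz1 was detected in 80.3% of cluster 6 members, 22.1% of the Foxp2-gated nuclei outside it, 8.42% of the other nuclei and 17.3% of glia. Rai14 was detected in 32.1%, 2.11%, 3.58% and 1.02% in the same order. Oprm1, the mu-opioid receptor, was detected in 50.0%, 21.1%, 24.1% and 4.08%. Rarb was detected in 62.0%, 58.9%, 33.4% and 12.2%. Drd1, the D1 receptor, was detected in 8.76%, 10.5%, 2.07% and 2.04%. Without thinning Drd1 was detected in 26.3% of cluster 6 members, so most of these nuclei gave no Drd1 UMI at this depth. Of the 290 in cluster 6, 74 had Drd1 UMIs without Drd2, 3 had Drd2 without Drd1 and 0 had both. As most nuclei gave no Drd1 UMI, these are counts of detection and do not limit the share of nuclei that express both.

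The next comparison asked which genes distinguish Foxp2-gated nuclei from the other Gad1/Gad2 nuclei of the same library. UMIs were summed per library and group and tested with edgeR, with the library as a block and the gate genes left out. A gene was called at an adjusted p under 0.05 and at least a 2-fold difference. Of 11839 genes tested, 293 (2.47%) were higher and 461 (3.89%) lower in Foxp2-gated nuclei. These counts describe the mixture that the bound selected, and genes that vary with Foxp2 from nucleus to nucleus differ by the choice of nuclei.

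Of the 8 intercalated markers, Foxp2 was the selecting gene and Sp8 was too low to test. Of the 6 tested, 4 were called higher and 0 lower, with a median log2 difference of 1.59 against -0.01 over all genes. Tshz1 measured 445, 456 and 418 CPM in the Foxp2-gated nuclei of the fed libraries and 318 and 335 CPM in those of the fasted libraries, in replicate order. In the other nuclei it measured 20.1 to 31.3 CPM. The groups did not overlap in any library, and the log2 difference was 3.90 ± 0.09 (SE; adjusted p = 1.6e-35, edgeR). Rai14 measured 109, 90.0, 73.0, 82.8 and 105.3 CPM in the same order and 10.8 to 15.7 CPM in the other nuclei, a log2 difference of 2.89 ± 0.12 (SE). Drd1 was at 21.9 ± 5.33 CPM against 5.83 ± 1.40 (SD, n = 5), and Meis2, a homeodomain factor of ventral forebrain neurons, at 2230.3 ± 271 against 1055 ± 51.3. Oprm1 was at 151 ± 28.8 CPM against 93.0 ± 10.7 and Pax6, another homeodomain factor, at 49.1 ± 8.95 against 25.9 ± 2.57. Both had log2 differences under 1 (0.79 and 0.98), which the call did not admit.

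Of the genes named by fold, Chst9 ranked above Tshz1, and 17 others outside the marker list accompanied Tshz1 and Rai14. Chst9 measured 635, 849 and 607 CPM in the fed and 273 and 627 CPM in the fasted libraries, against 6.08 to 19.4 CPM in the other nuclei (log2 difference 5.59 ± 0.09, SE). Its lowest value came from fasted replicate 1, which also had the smallest share in cluster 6. Erbb4 reached 6283 ± 1685 CPM against 663 ± 180 (SD, n = 5). The matrix receptor Itga11, the nuclear factors Nfib and Nfix, Sema5b (a semaphorin guidance cue), Vwc2l, Sphkap (an anchor of protein kinase A), Pbx3 (a homeodomain cofactor), Kcnh5 (a voltage-gated potassium channel), the protease Adamts9 and the homeodomain factor Cux2 followed, with log2 differences of 2.42 to 3.06. Marchf3, Htr1f (a serotonin receptor), Plxdc1, Gdpd5, Msra and Ntng1 (an axonal adhesion protein) were higher by 2.07 to 2.29. Htr1f was at 1044 ± 257 CPM against 236 ± 25.1 and is known to couple to inhibitory G proteins. Each of these 20 genes was higher in all 5 libraries.

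**Figure D2:**
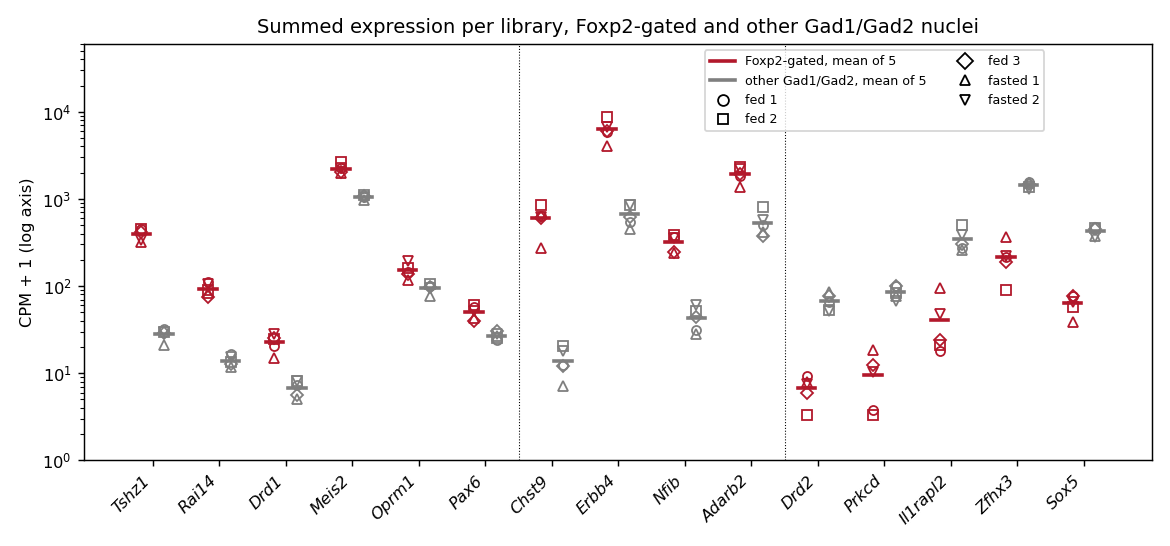
CPM + 1 on a log axis for 15 genes, with a symbol for each library and a line at the mean of 5, in Foxp2-gated (red) and other Gad1/Gad2 nuclei (grey); dotted lines part intercalated markers, other high genes and low genes. Red and grey symbols do not overlap for the 15 genes shown.

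Markers of CeA types were mostly lower, where 3.89% of all genes were called lower and 2.47% higher. Of 16 tested, 11 were called lower (Prkcd, Calcrl, Dlk1, Tac2, Dnah5, Vipr2, Sst, Ebf1, Il1rapl2, Tafa1 and Vdr) and 0 higher, with a median log2 difference of -1.58. Another 3 had differences above 0 but under 1, which the call did not admit. They were Cdh9 (0.78 ± 0.08, SE), Tac1 (0.76 ± 0.32) and Cacna1g (0.22 ± 0.09). Cdh9 was the most abundant of the list in the Foxp2-gated nuclei, at a mean of 203 CPM. Prkcd, the kinase that marks a large lateral CeA population, measured 2.80, 2.31, 11.5, 17.3 and 9.36 CPM in fed replicates 1 to 3 and fasted replicates 1 and 2, against 67.1 to 99.5 CPM in the other nuclei. Sst, the peptide somatostatin, was at 7.86 ± 6.69 CPM against 36.9 ± 12.4. Drd2, the D2 receptor, was the most strongly lowered of the genes above 50 CPM, at 5.79 ± 2.31 CPM against 65.8 ± 14.6 (log2 difference -3.49 ± 0.20, SE). Il1rapl2, Zfhx3, Zfp536, Gm19410, Cracr2a, Sox5, Tmcc3 and Evc2 were lower in all 5 libraries by log2 differences of -2.35 to -3.35. Il1rapl2 and Zfhx3 were highest in fasted replicate 1, at 93.2 and 362 CPM, and at 16.8 to 46.8 and 90.0 to 219 CPM in the other 4 libraries.

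Of 41 transcription factors tested, 9 were called higher and 14 lower, beside 2.47% higher and 3.89% lower over all genes. The 9 were Foxp4, Meis1, Meis2, Tshz1, Pbx3, Dlx1, Nfib, Casz1 and Mef2c. Mef2c, an activity-regulated factor, was at 327 ± 99.9 CPM against 91.96 ± 6.56. Among the 14 were Isl1 and Ebf1, Lhx6 and Sox6 of the medial ganglionic lineage, and Sox5 and Satb1. Of 14 dopamine signalling genes tested, 2 were called higher and 2 lower, and the other 10 were not called. Drd3 was higher (38.6 ± 8.16 against 17.1 ± 2.16 CPM) like Drd1, and Adora2a, the adenosine receptor found with D2 receptors in striatum, was lower (7.44 ± 3.60 against 21.998 ± 8.04 CPM) like Drd2.

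Neuromodulator receptors were called in both directions, 3 of 34 higher and 9 lower, beside 2.47% higher and 3.89% lower over all genes. The muscarinic receptor Chrm2 (107 ± 42.9 against 53.2 ± 10.3 CPM), the cholecystokinin receptor Cckbr (23.7 ± 5.71 against 8.90 ± 0.969 CPM) and Htr1f were higher. The 9 lower were Htr1b, Adra1b, Cnr1, Tacr3, Oxtr, Vipr2, Hcrtr2, Calcrl and Lepr. Oxtr, the oxytocin receptor, and Lepr, the leptin receptor, were low in all nuclei, at 3.28 ± 0.466 and 4.01 ± 0.993 CPM in the others and at 0 in 3 and 3 of 5 Foxp2-gated sums. Of 7 opioid genes tested, 1 was called, the peptide precursor Pnoc, which was lower. Penk, the enkephalin precursor, was at 136 ± 10.2 against 128 ± 22.7 CPM (log2 difference 0.21 ± 0.10, SE), a difference that was not called.

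Counts for ion channel and synapse genes were small, beside 2.47% higher and 3.89% lower over all genes, so nothing is read from them about these families and the members are given singly. Of 37 potassium channel genes, 3 were called higher and 0 lower. They were Kcnj6, which encodes the inward rectifier GIRK2 (348 ± 43.8 against 113 ± 4.81 CPM), Kcnd2, an A-type channel (6411 ± 1342 against 2465 ± 221 CPM), and Kcnh5. Of 27 genes of GABA and glycine synapses, 1 was higher and 3 lower. Glra2, a glycine receptor subunit, was higher (121 ± 24.0 against 55.1 ± 12.7 CPM), and Glra1, Gabra5 and Gabrg1 were lower. Of 24 glutamate receptor genes, Grm8, a presynaptic metabotropic receptor, was higher (log2 difference 1.51 ± 0.07, SE) and Grin2c lower. Axon guidance and adhesion genes gave 10 higher and 9 lower of 60. Slit2 was higher and Slit3 lower, Epha6 was higher and Epha4 lower, and Efna5, a ligand of Eph receptors, was lower. Slit2 had 476 ± 170 against 143 ± 19.9 CPM and Slit3 170 ± 84.5 against 650 ± 90.0 CPM.

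Markers of other cell types were examined as a check on the makeup of the Foxp2-gated nuclei. Over all genes, 2.47% were called higher and 3.89% lower. Of 8 interneuron markers tested, Adarb2 was higher (1934 ± 368 against 533 ± 168 CPM) and Lhx6, Npy and Sox6 were lower, and Nkx2-1, Pvalb and Vip had no UMI in any of the 5 sums. Of 9 astrocyte markers, Slc1a2, Gja1 and Ntsr2 were lower and Aqp4 was higher. Aqp4, the water channel of astrocytes, measured 0, 6.15, 17.2, 6.90 and 6.44 CPM in fed replicates 1 to 3 and fasted replicates 1 and 2, against 1.52 to 2.36 CPM in the other nuclei, and 78.0 CPM in glia. The summed astrocyte list, led by Slc1a2, was lower in the Foxp2-gated than in the other nuclei of every library (96.1 to 307 against 318 to 562 CPM). Of 6 markers of oligodendrocyte precursors, Pdgfra and Cspg4 were lower. Oligodendrocyte, microglial and endothelial, and excitatory markers gave 0 calls of 9, 5 and 1 tested.

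To place the Foxp2-gated nuclei among neighbouring populations, they were set against 731 Rarb-gated nuclei (at least 8 Rarb UMIs per 10000, below both other bounds) and 204 Pde1c-gated nuclei (at least 15 Pde1c UMIs per 10000). The study names Rarb for the amygdalostriatal area and Pde1c for the IPAC, an interstitial nucleus beside the anterior commissure. Against the Rarb-gated nuclei, 297 of 9157 genes (3.24%) were higher and 264 (2.88%) lower. Against the Pde1c-gated nuclei, 408 of 6919 (5.90%) were higher and 316 (4.57%) lower. Both comparisons use the same Foxp2-gated sums, so their values are given side by side without a test of their overlap.

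Some genes of striatal projection neurons were lower in the Foxp2-gated nuclei, and others were not called. Of 15 tested in each comparison (Rarb left out of the former), 8 were called lower than in Rarb-gated and 9 lower than in Pde1c-gated nuclei, with 0 higher in either. The median log2 differences were -1.07 and -1.58, against 6.3e-05 and -0.0004 over all genes. Drd2 was at 5.79 ± 2.31 CPM in Foxp2-gated, 234 ± 32.3 in Rarb-gated and 206 ± 57.0 in Pde1c-gated nuclei. Adora2a, Ppp1r1b (the dopamine-regulated phosphatase inhibitor DARPP-32), Pde1b, Adcy5, Gng7, Bcl11b and Foxp1 were lower in both comparisons, and Gnal against the Pde1c-gated nuclei. Rgs9, Pde10a and Ptpn5 were not called in either comparison, the latter 2 with log2 differences of -0.61 to -0.99. Rgs9 was at 194 ± 58.2, 200 ± 33.9 and 157 ± 58.2 CPM in the 3 gates. Drd1 exceeded Rarb-gated nuclei (21.9 ± 5.33 against 9.21 ± 6.27 CPM) but differed from the 20.8 ± 5.83 CPM of the Pde1c-gated nuclei by less than its error (log2 difference -0.03 ± 0.25, SE). Drd3 was higher than in both, at 38.6 ± 8.16 against 10.4 ± 2.66 and 8.88 ± 8.02 CPM.

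**Figure D3:**
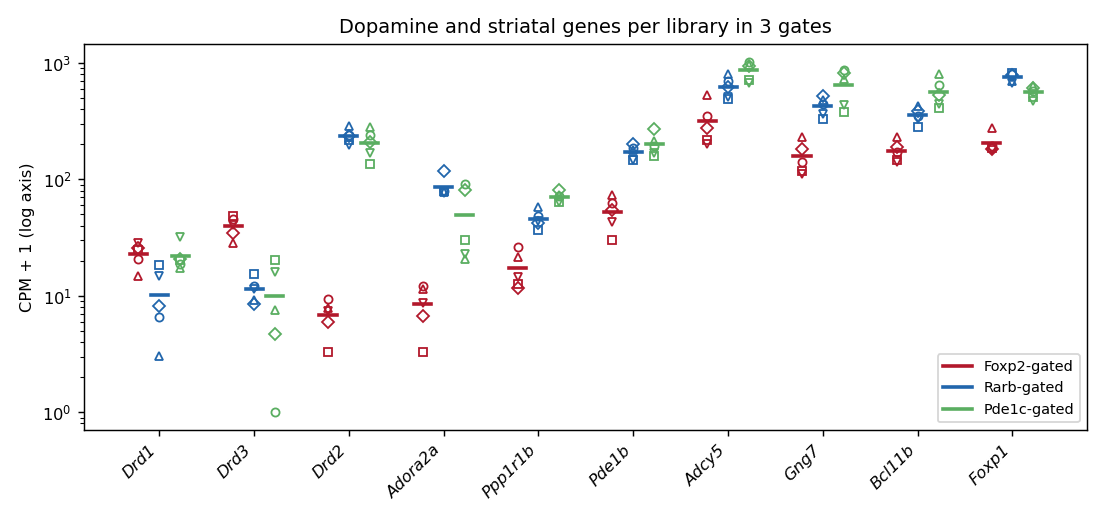
CPM + 1 on a log axis for dopamine receptors and striatal genes in 3 gates, with a symbol for each library (circle, square and diamond fed 1 to 3, triangles up and down fasted 1 and 2) and a line at the mean of 5. Foxp2-gated nuclei (red) sit below both other gates for Drd2 and highest for Drd3.

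Chst9, Nfib, Erbb4, Rai14, Adarb2, Tshz1, Marchf3, Vwc2l, Gpc3, Kcnj6 and Cux2 were among the 20 named higher genes in both comparisons. Against the Rarb-gated nuclei the log2 difference was 5.69 for Chst9, 4.73 for Nfib and 4.05 for Rai14. Against the Pde1c-gated nuclei it was 6.24 for Chst9, 5.06 for Itga11 and 5.01 for Vwc2l. Casz1 and Tox, which encode zinc finger and HMG-box factors, were higher than in both, Casz1 at 47.8 ± 22.3 against 7.60 ± 2.83 and 2.49 ± 3.35 CPM and Tox at 230 ± 58.1 against 47.8 ± 20.6 and 30.6 ± 29.6 CPM. Among the genes called lower were Synpo2, Fa2h, Ror1, Stk31 and Slit3 against the Rarb-gated nuclei, and Bmpr1b (a BMP receptor), Mob3b, Myo3b, Prkch, Ror1, Mkx, Gli3, Mgll (which degrades an endocannabinoid) and Stk32a against the Pde1c-gated nuclei. Of the opioid genes, Penk and Pdyn are given singly. Penk was lower than in both, at 136 ± 10.2 against 276 ± 33.3 and 384 ± 110 CPM. Pdyn, the dynorphin precursor, was lower than in the Pde1c-gated nuclei (9.02 ± 2.99 against 53.2 ± 18.5 CPM) and not called against the Rarb-gated nuclei (6.74 ± 1.09 CPM). Of 37 potassium channel genes tested against Rarb-gated nuclei, 8 were called higher and 3 lower, beside 3.24% higher and 2.88% lower over all genes. The median log2 difference of the 37 was -0.11. Kcnj6 had the largest difference of the 8 (log2 2.65 ± 0.10, SE).

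Fed replicate 3 carried mCherry in Htr2a-Cre cells. In that library 14 of 89 Foxp2-gated nuclei (15.7%, exact 95% interval 8.88 to 25.0) had an mCherry UMI, at a median of 11263 UMIs. So did 3 of 25 glia (12.0%, interval 2.55 to 31.2), at a median of 3861 UMIs, and 410 of 1230 other Gad1/Gad2 nuclei (33.3%, interval 30.7 to 36.0), at 14342.5 UMIs. The intervals of Foxp2-gated nuclei and glia overlap. With only 25 glia, at a lower depth, this comparison cannot decide whether the share of Foxp2-gated nuclei with mCherry exceeds background. The 14 nuclei held 71 mCherry UMIs, 22 of them in 1 nucleus of cluster 8, and the 3 glia held 6. Whether these UMI counts exceed background was not tested.

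The comparison of 3 fed with 2 fasted libraries asked which genes change with fasting within the Foxp2-gated nuclei. Of 9416 genes tested, 4 (0.0425%) were called at an adjusted p under 0.05 by edgeR, all higher after fasting, and 388 had an unadjusted p under 0.05. They were Mt1, Zbtb16, Cst3 and Rplp1. With the batch as a replicate block, 18 genes were called, all higher, among them these 4. In that fit fed replicate 3, alone in its batch, adds nothing to the fasting change, which rests on replicates 1 and 2 of each state. Without fed replicate 2, 0 were called (351 at an unadjusted p under 0.05), so Mt1 lost its call as well. Without fed replicate 3, and likewise with a bound of 12 Foxp2 UMIs per 10000, Mt1 was the 1 gene of these 4 still called. The p-values measure the spread between these pooled libraries.

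Mt1, which encodes the zinc-binding protein metallothionein 1 (ENSMUSG00000031765; GRCm39, chr8:94905710-94906955), measured 22.4, 9.23 and 9.03 CPM in the fed and 65.6 and 80.8 CPM in the fasted libraries. The groups did not overlap, and the log2 change was 2.71 ± 0.34 (SE; adjusted p = 0.0015, edgeR). It was 2.62 ± 0.35 in the 290 nuclei of cluster 6. The other Gad1/Gad2 nuclei rose from 15.7 ± 8.77 (SD, n = 3) to 70.1 ± 8.76 CPM (SD, n = 2), and the 2 changes differed by 0.28 ± 0.34 (SE; adjusted p = 1.0, edgeR). The difference between the changes was thus within its error. Mt1 is also abundant in glia (235 CPM, pooled over libraries), and the fasted libraries had more barcodes, higher mitochondrial shares in the other nuclei and astrocyte sums of 307 and 287 CPM in Foxp2-gated nuclei against 204, 96.1 and 253 CPM in fed. The part of these in the Mt1 change was not tested. Metallothionein genes respond to metals and to glucocorticoids. The 250 bases before the RefSeq start of Mt1 (GRCm38.p6, chr8:94178839-94179088, plus strand) and of its neighbour Mt2 (chr8:94172368-94172617, plus strand) are shown because Mt1 gave the largest called change. Capitals mark the core of the metal response element, TGCGCNC or TGCACNC, on either strand:
Mt1: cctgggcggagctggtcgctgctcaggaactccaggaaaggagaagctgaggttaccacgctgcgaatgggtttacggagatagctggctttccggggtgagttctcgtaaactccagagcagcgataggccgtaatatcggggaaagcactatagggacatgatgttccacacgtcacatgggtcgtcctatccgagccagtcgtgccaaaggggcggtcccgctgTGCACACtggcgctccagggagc
Mt2: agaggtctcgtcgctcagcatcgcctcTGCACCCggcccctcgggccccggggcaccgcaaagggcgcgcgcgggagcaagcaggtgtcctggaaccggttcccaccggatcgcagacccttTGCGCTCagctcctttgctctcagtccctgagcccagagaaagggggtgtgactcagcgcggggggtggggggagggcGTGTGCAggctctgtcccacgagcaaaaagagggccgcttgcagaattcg
The core occurs at 1 place in the Mt1 window and at 3 places in the Mt2 window. Bases beyond either end of a window were not searched, so these are not counts for the whole promoter. At least 1 match is present in 21.4% of the 32851 promoter windows of this length and at least 3 in 1.26%, and a match is a description of the letters, not a site of binding. Mt2 was not called (log2 change 1.55, adjusted p = 1, edgeR).

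Zbtb16, a zinc finger repressor (ENSMUSG00000066687; GRCm39, chr9:48563141-48748664), measured 22.4, 17.7 and 18.1 CPM in the fed and 121 and 59.1 CPM in the fasted libraries. The groups did not overlap, and the log2 change was 2.04 ± 0.33 (SE; adjusted p = 0.023, edgeR). Fasted replicate 1, where fewest Foxp2-gated nuclei lay in cluster 6, gave the higher value. Within cluster 6 alone the change was 0.80 ± 0.44 (SE) with an adjusted p of 1.0 (edgeR), so the call was lost there, as it was with a bound of 12 Foxp2 UMIs per 10000 and without any 1 of the 3 fed libraries. Cst3, the protease inhibitor cystatin C, measured 81.1, 28.5 and 35.3 CPM in fed and 124 and 186 CPM in fasted libraries, and within cluster 6 it was not called either (log2 change 1.39 ± 0.41, SE). Its call was also lost with at least 3 Foxp2 UMIs, with 12 per 10000, with at least 4000 UMIs, and without fed replicate 2 or fed replicate 3. Cst3 was at 1112 CPM in glia, and the part of the values given beside Mt1 in its change was not tested either. Rplp1, a ribosomal stalk protein, measured 36.4, 14.6 and 20.5 CPM in fed and 93.2 and 71.98 CPM in fasted libraries and was called within cluster 6 (2.00 ± 0.35, SE). Its call was lost with DESeq2, with a bound of 12 Foxp2 UMIs per 10000, and without fed replicate 2 or fed replicate 3. Rplp1 has near-identical pseudogene copies, which makes its count uncertain.

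The next genes by p were not called. Rps21, Fth1, Fkbp5, Ccnd3, Rps29 and Sema5a had log2 changes of 1.12 to 1.80 with adjusted p of 0.12 to 0.13 (edgeR). Fkbp5, a co-chaperone of the glucocorticoid receptor, measured 53.1, 62.3 and 50.1 CPM in fed and 128 and 123 CPM in fasted libraries. Of 9 glucocorticoid-induced genes tested, 2 were called (Mt1 and Zbtb16), 8 had a log2 change above 0, and their median was 0.89 against -0.0006 over all genes. The same test called 4 (0.0425%) of all 9416 genes, and 4694 of the 9416 had a change above 0. The Zbtb16 call was lost when any fed library was left out, and the Mt1 call without fed replicate 2, so the count of calls depends on the libraries used. In the other Gad1/Gad2 nuclei Fkbp5 was at 88.4 ± 27.8 CPM (SD, n = 3) in fed and 197 ± 9.04 CPM (SD, n = 2) in fasted libraries, and the difference of the 2 changes was -0.09 ± 0.20 (log2, SE).

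**Figure D4:**
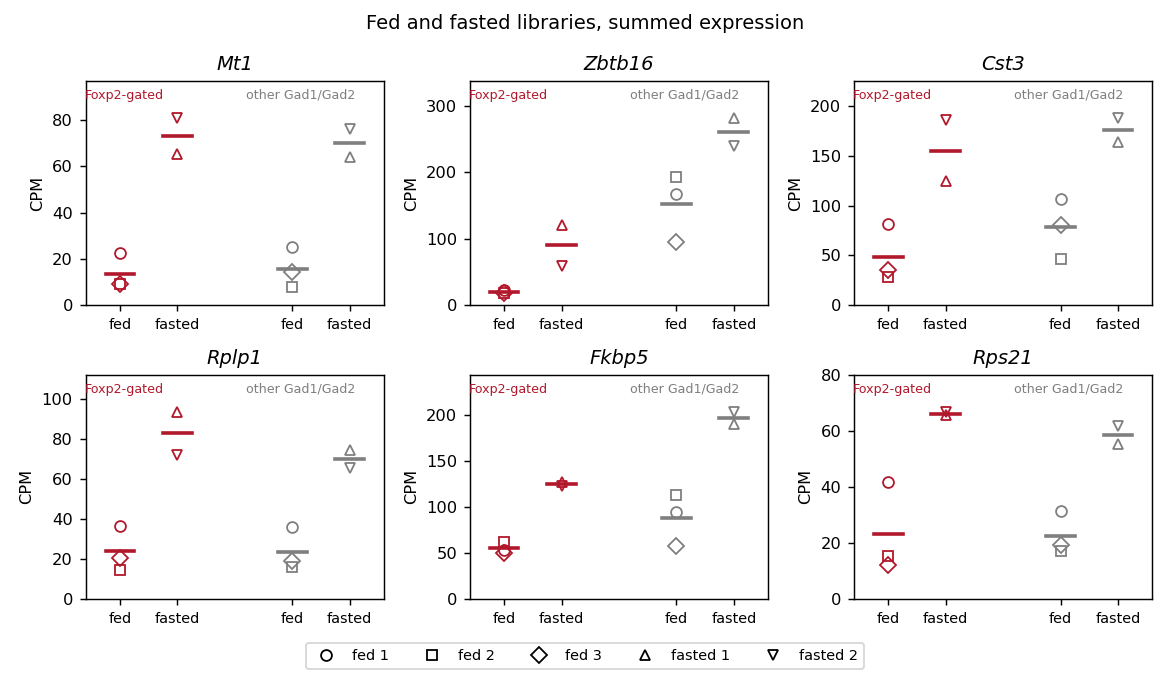
CPM of 6 genes (y axis) in fed and fasted libraries, with a symbol for each library and a line at the group mean, in Foxp2-gated (red) and other Gad1/Gad2 nuclei (grey). Fasted values lie above all fed values in both gates for Mt1, Zbtb16, Cst3, Rplp1, Fkbp5 and Rps21.

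Of 79 ribosomal protein genes tested, 1 was called (Rplp1), and 78 had a log2 change above 0, with a median of 0.95. Over all 9416 genes tested, 4 (0.0425%) were called, 4694 had a change above 0, and the median was -0.0006. Their summed level in the Foxp2-gated nuclei was 1952, 1105 and 1260 CPM in the fed and 2820 and 2574 CPM in the fasted libraries. In the other Gad1/Gad2 nuclei it was 1885, 1158 and 1385 CPM in the fed and 2838 and 2737 CPM in the fasted libraries, and the difference between the 2 changes had a median of -0.07 over 80 genes with 0 calls. Genes of the respiratory chain had 61 of 71 changes above 0, a median of 0.43 and 0 calls. The fasted libraries also hold more barcodes (7850 and 7291 against 4657, 2347 and 1694) and higher mitochondrial shares in the other nuclei. The part of either in these ribosomal values was not tested.

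Immediate-early genes, which report recent activity, had 6 of 7 changes above 0 and 0 calls, beside 4694 of 9416 above 0 over all genes. Egr1 had a log2 change of 1.31 and an adjusted p of 0.49 (edgeR). With a bound of 12 Foxp2 UMIs per 10000, Egr1 was called among 5 genes, with Mt1, Fth1, Rps21 and Rps29. Of 26 genes of insulin and energy sensing and 17 clock genes, 0 were called. Intercalated markers, potassium channels (37 tested), glutamate receptors (22) and GABA and glycine synapse genes (26) also gave 0 calls, with medians between -0.07 and -0.02. For 6 astrocyte markers the median was 0.76, with Apoe at 1.74 and Aldoc at 1.35, and 0 were called. The summed astrocyte list was 204, 96.1 and 253 CPM in fed and 307 and 287 CPM in fasted Foxp2-gated nuclei. The microglial and endothelial list summed to 2.80, 12.3 and 22.2 CPM in fed and 31.1 and 55.0 CPM in fasted libraries, and in cluster 6 to 3.93, 7.39, 26.3, 16.3 and 8.64 CPM, where fed and fasted libraries overlapped. Fewer nuclei of a type and less RNA in each cannot be told apart in such sums.

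Whether fasting acted differently in Foxp2-gated and other Gad1/Gad2 nuclei was tested as the difference of the 2 changes. Of 12609 genes, 25 (0.198%) were called, 17 with a positive difference (the log2 change in Foxp2-gated nuclei minus that in the others) and 8 with a negative one. DESeq2 called 0 (220 at an unadjusted p under 0.05), and with a bound of 12 Foxp2 UMIs per 10000 edgeR called 7, of which 2 were among the 25. Among the 10 with the smallest adjusted p were Il1rapl2, Zfhx3, Fbxl7, Sulf1, Pbx3, Sema5a, Zbtb16, Zfp804a and Ubash3b. Il1rapl2, a synaptic adhesion protein, measured 16.8, 20.0 and 23.0 CPM in fed and 93.2 and 46.8 CPM in fasted Foxp2-gated nuclei. In the other nuclei it measured 269, 504 and 306 CPM in fed and 258 and 387 CPM in fasted libraries. The difference of changes was 1.58 ± 0.26 (log2, SE; adjusted p = 1.9e-05, edgeR). For Zfhx3, Sema5a and Zfp804a, too, the fed level was lower in Foxp2-gated than in other nuclei and the fasted mean lay nearer to that of the other nuclei. Pbx3 was the reverse, higher in Foxp2-gated nuclei and nearer to the others in fasted libraries (1381 ± 235 CPM in fed, SD, n = 3, and 1015 ± 206 in fasted, n = 2). Without fed replicate 1 or without fed replicate 2, 4 genes were called, and Il1rapl2 was not among the calls. Without fed replicate 3 there were 48. Leaving out either fasted library leaves 1 fasted library, so calls from those fits are not counted.

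The share of Foxp2-gated nuclei in cluster 6 was 78.3 ± 5.96% (SD, n = 3) in fed and 63.4 ± 16.1% (SD, n = 2) in fasted libraries, which overlapped (exact permutation p = 0.4). It was below the fed range in fasted replicate 1 and within it in fasted replicate 2. Its part in these differences was not tested over libraries. When only the 290 nuclei of cluster 6 were taken and the other 103 counted among the other nuclei, 8 genes were called. Of the 9 genes named, Fbxl7 and Sulf1 were still called, with differences of 1.21 ± 0.23 and 1.40 ± 0.24 (log2, SE). Il1rapl2 dropped to 0.74 ± 0.35, Zfhx3 to 0.28 ± 0.25, Zbtb16 to 0.14 ± 0.40 and Sema5a to -0.34 ± 0.61. Fbxl7, an F-box protein of ubiquitin ligases, measured 86.7, 108 and 55.8 CPM in fed and 114 and 139 CPM in fasted Foxp2-gated nuclei, and 64.6 to 74.4 CPM in fed and 51.3 and 49.2 CPM in fasted other nuclei. Sulf1, which edits heparan sulfate, measured 61.5, 82.3 and 60.7 CPM in fed and 58.7 and 121 CPM in fasted Foxp2-gated nuclei, and 55.0, 56.5 and 55.1 CPM in fed and 41.2 and 34.6 CPM in fasted other nuclei. Without fasted replicate 2, which leaves 1 fasted library, the difference of changes was 0.09 for Sulf1 and 0.81 for Fbxl7. The microglial genes C1qa, C1qb and Cx3cr1 were among the 25. In fasted replicate 2 they measured 23.4, 19.3 and 19.9 CPM in all Foxp2-gated nuclei and 0.864, 0.864 and 1.73 CPM in cluster 6.

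**Figure D5:**
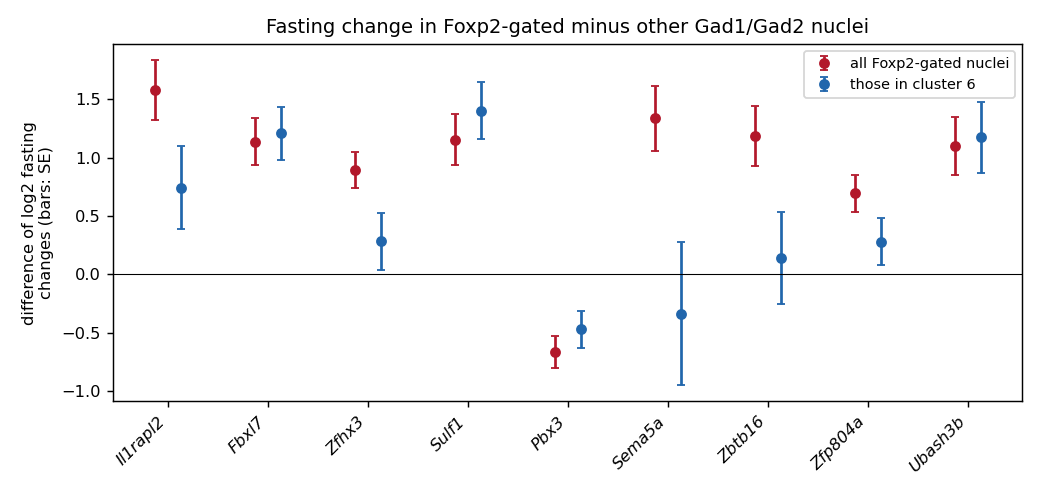
Difference of the log2 fasting changes between Foxp2-gated and other Gad1/Gad2 nuclei (y axis, bars show the SE) for 9 of the 10 genes of smallest adjusted p, with all Foxp2-gated nuclei (red) and the 290 of cluster 6 (blue). Sema5a goes from 1.34 to -0.34, and Fbxl7, Sulf1 and Ubash3b stay above 1.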

How the data were processed

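The authors made 3′ droplet libraries and deposited raw UMI counts per gene and barcode for 22532 genes. The file headers give Cell Ranger 5.0.0 and the study GRCm39 with intronic reads. The submitters' processing notes name Cell Ranger 2.1.1 and mm10, so builds are taken from the study. Group and replicate follow the labels.

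Nuclei and gates were set as in the report. Scrublet, run within scanpy 1.11.5, marked 72 of 7161 kept nuclei as doublets, which stayed in. Clusters used log-normalized counts, 2000 variable genes, 30 principal components, 20 neighbours and Leiden resolution 0.8. UMIs were summed per library and gate. Tests used edgeR 4.0.16 (TMM, filterByExpr, robust quasi-likelihood, Benjamini-Hochberg over all genes) in R 4.3.3, and all tests were checked on simulated data. Gate genes stayed in library sizes and out of tests. Members and gene lists were chosen with earlier results of these data known.

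Genes named were, per profile comparison, up to 20 higher and 10 lower by fold with at least 50 CPM and 1 direction in all 5 libraries. For fasting they were calls of at least 20 CPM without overlap and, as fewer than 5 genes were called, the 10 of smallest p. For the difference of changes they were the 10 of smallest adjusted p, of which 9 are given. A few genes the rule or lists would name are not reported here. List members were also named, and C1qa, C1qb, Gpr149 and the leading genes of clusters were picked after their values were seen. Other settings tried were RLE scaling, DESeq2 1.42.0, a likelihood ratio test, no filter, other gates and depths, doublets removed, each library left out, the replicate block, equal nuclei and cluster 6 alone.

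Replicate numbers pair libraries by preparation batch. Deviations from the feeding state's mean correlated across 9416 genes by 0.130 for replicates 1 and 0.251 for replicates 2, and with 2 fasted libraries the crossed pairs have opposite values by construction, so that the pairing rests on the batches and not on these values.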

Additional observations from a re-analysis of the deposited data

Results flagged for a closer look

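The fasting change of 9 named genes differed between Foxp2-gated and other Gad1/Gad2 nuclei by the test of that difference in edgeR. The log2 differences were 1.58 for Il1rapl2, 1.14 for Fbxl7, 0.89 for Zfhx3, 1.15 for Sulf1, -0.67 for Pbx3, 1.34 for Sema5a, 1.19 for Zbtb16, 0.69 for Zfp804a and 1.10 for Ubash3b. DESeq2 called 0 genes in this comparison, with 220 at an unadjusted p under 0.05. Of these 9 genes, 3 were called without fed replicate 1 (Fbxl7, Pbx3 and Ubash3b) and 2 without fed replicate 2 (Fbxl7 and Sulf1). With a bound of 12 Foxp2 UMIs per 10000, 1 was called (Fbxl7). Leaving out either fasted library leaves 1 fasted library, so calls from those fits are not given. Without fasted replicate 2 the differences for Sulf1 and Fbxl7 were smaller, as given above. With cluster 6 alone, 2 were called (Fbxl7 and Sulf1), and the differences were 0.74 for Il1rapl2, 0.28 for Zfhx3, 0.14 for Zbtb16 and -0.34 for Sema5a.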

How the results depend on the processing

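All 30 genes named against each of the other, Rarb-gated and Pde1c-gated nuclei kept their direction under the 13 alternatives run for these comparisons, which did not include equal numbers of nuclei or cluster 6 alone. The calls lost were Zfp536 without fed replicate 3 (against other nuclei) and Sh3rf2 (against Rarb-gated nuclei) without fed replicate 2, fed replicate 3 or fasted replicate 2. Without the filter on low counts, 1146 genes in place of 724 differed from Pde1c-gated nuclei, as more than 2 times as many genes were tested. RLE scaling moved the median of all genes by under 0.02 on the log2 scale.

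The 4 fasting calls became 27 with the likelihood ratio test, 18 with the replicate block and 10 with equal numbers of nuclei, all higher. Without the filter they became 37 (36 higher and 1 lower), and with cluster 6 alone 6 (5 higher and 1 lower). When a fed library was left out they became 0 to 5, all higher. Without fed replicate 2, 0 were called by edgeR (351 at an unadjusted p under 0.05). Leaving out either fasted library leaves 1 fasted library, so calls from those fits are not counted here. Among fits with at least 2 libraries in each group, Mt1 was called under every alternative except the fit without fed replicate 2. The replicate block is a pairing by batch and turned no direction among the named genes. The 25 differences of fasting changes became 0 with DESeq2, 7 with at least 12 Foxp2 UMIs per 10000, 8 with cluster 6 alone (an alternative added after seeing the data) and 4 to 52 when a library was left out (48 without fed replicate 3 and 52 without fasted replicate 2). Sema5a reversed to -0.34 with cluster 6 alone. The fasted minus fed share of Foxp2-gated nuclei was -3.79 to 0.0053 percentage points when a library was left out, and the latter, without fasted replicate 1, reversed it. With the replicate block it was -2.25. The share in cluster 6 was 71.0% to 77.0% when a library was left out and 73.8% to 74.7% at the other cluster resolutions, with at least 3 Foxp2 UMIs or with at least 4000 UMIs. Nuclei with at least 10 or 20 Foxp2 UMIs per 10000 had shares of 78.9% and 92.9%. Where no cause is named it was not tested. The summed counts of replicates 1, the shallowest, limit genes under about 10 CPM.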
